A study of Homo sapiens with 4 samples.

Results

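The cytochrome P450 genes are the members of the CYP gene family, and 53 of the 18806 gene symbols with a transcript value in Huh7 cells were taken as such. They were found by name alone, as symbols made of CYP, a family number, a letter and a gene number. CYP51A1, which belongs to cholesterol synthesis, was left out and is given apart. The 53 genes were grouped by family number. Families 1 to 3, known for drug metabolism, held 23 genes, and family 4 held 12 fatty acid hydroxylases. Families 7 and higher held 18 genes, most of which act on sterols, bile acids, steroid hormones, vitamin D or retinoic acid. In this last class CYP20A1 has no agreed substrate and CYP27C1 is an enzyme of vitamin A.

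P450 enzymes are heme proteins that insert an oxygen atom into a substrate. Most of them sit in the membrane of the endoplasmic reticulum and take their electrons from P450 oxidoreductase, encoded by POR, whereas some sit in mitochondria and take them from ferredoxin, encoded by FDX1. The liver is the main site at which P450 enzymes clear drugs and turn cholesterol into bile acids, and their genes are controlled by nuclear receptors, by the aryl hydrocarbon receptor (AHR) and by liver transcription factors such as HNF4A.

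Huh7 is a line established from a human hepatocellular carcinoma. All 4 libraries came from a clone of these cells with Cas9 that was given a lentiviral guide and selected with hygromycin B. The control group carried a non-targeting guide (sgNS, 2 libraries, labelled WT) and the other group a guide against the RNA methyltransferase METTL16 (METTL16 KO, 2 libraries, labelled as a knockdown). The comparison asks how transcript levels differ once METTL16 is depleted. The methods call the replicates biological, but no source used here says whether those of a group were transduced separately or whether the numbers 1 and 2 stand for different guides, so the p-values measure the spread between these libraries, which may be technical.

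Levels are given in TPM, a share of the library's transcripts that corrects for transcript length, so that levels of different genes can be compared. METTL16 was listed at 26.3 and 25.1 TPM in sgNS against 17.6 and 18.8 TPM in METTL16 KO, giving a log2 fold change of -0.50 (SE 0.062, adjusted p = 2.4e-05, limma). Between 11723 and 12074 genes reached 1 TPM per library. The median log2 fold change of the 11971 genes tested was 0.16, and it was -0.0016 once each library was divided by the median of its gene ratios, so that P450 changes are also given on that scale where it matters. TPM values hold no read counts, so the depth behind each value is unknown. The 10 hepatocyte markers were at 119.8 TPM or more in every library. Of these 10, 7 rose and 2 fell (APOB and TF), where 50.1% of all genes tested rose and 25.6% fell. After median-ratio scaling 6 were higher and 3 lower, where 36.4% of all genes tested were higher and 36.5% lower. Their summed level was 19381 and 19469 TPM in sgNS and 32791 and 32308 TPM in METTL16 KO. Most of that difference came from AFP, at 1737 and 1793 TPM in sgNS against 10386.5 and 10197.3 TPM in METTL16 KO. Of 5 fibroblast markers the summed level was between 2.69 and 3.59 TPM, and of 4 endothelial markers between 2.73 and 5.15 TPM, with KDR at 0 in every library. Of 4 bile duct markers the summed level was between 241.1 and 251.8 TPM, with KRT7 and KRT19 at 0.21 TPM or less, SOX9 lower in METTL16 KO (log2 fold change -0.16) and EPCAM higher, at 20.2 and 20.5 TPM against 34.5 and 34.0 TPM (log2 fold change 0.75). Of 4 leukocyte markers it was 3.73 and 3.08 TPM in sgNS and 9.81 and 8.92 TPM in METTL16 KO, nearly all of it CD68. The part of these shifts in the P450 values was not tested.

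Most P450 genes were silent or barely transcribed in these cells. Between 15 and 23 of the 53 reached 1 TPM per library, and 11 were listed at 0 in all 4. A mean of at least 1 TPM over the 4 libraries was required for a test, which 20 of the 53 genes met. The highest levels belonged to CYP26B1, CYP1A1 and CYP27A1, and together with CYP2R1, CYP2J2, CYP4F3, CYP4F12, CYP39A1 and CYP20A1 these were the genes above 5 TPM in every library. The P450 enzymes that dominate drug clearance in the adult liver were close to the floor, with CYP3A4, CYP2E1, CYP2D6, CYP1A2 and CYP2A6 at 0.38 TPM or less in every library.

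**Figure D1:**
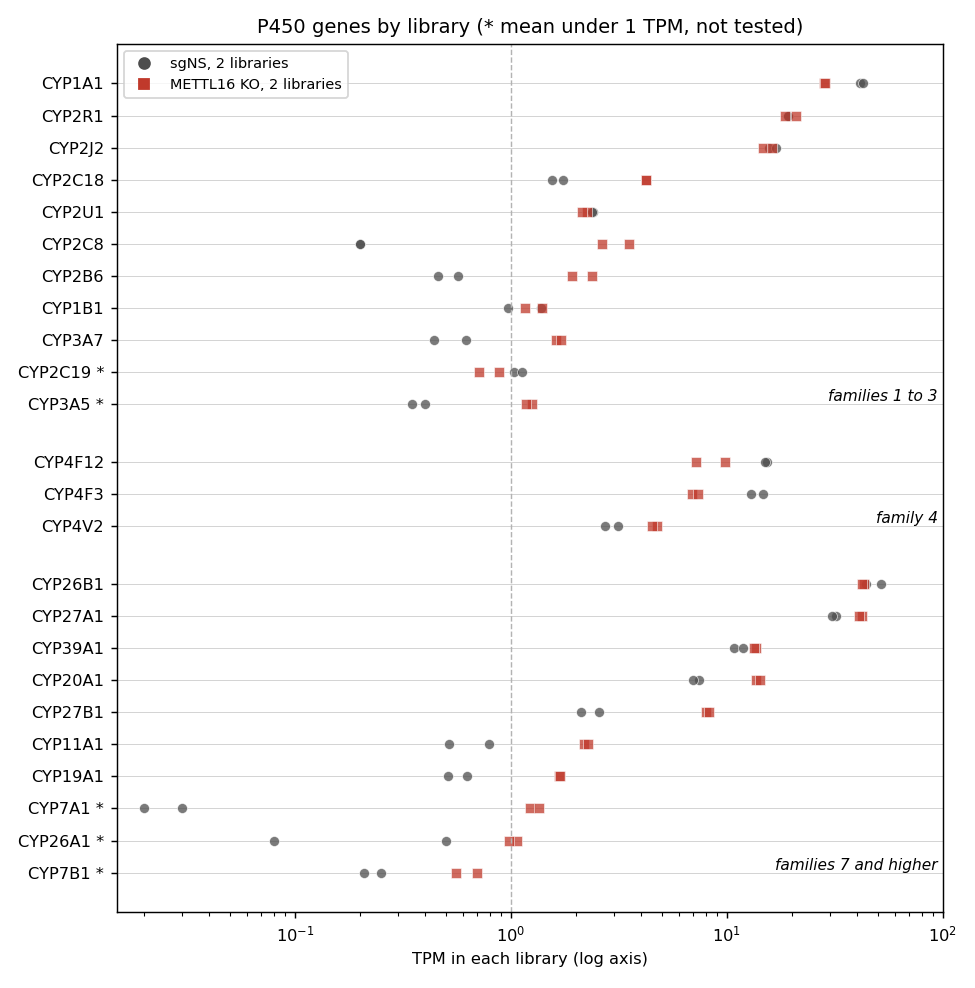
Level of 24 P450 genes that reached the minimum mean of 1 TPM or were listed at 0.5 TPM or more in a library, in TPM on a log axis, with 1 point per library (grey circles sgNS, red squares METTL16 KO; an asterisk marks the 5 genes that were not tested). CYP2C8 and CYP7A1 show the widest gaps between the groups, at levels under 4 TPM, while the genes above 10 TPM differ by less.

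A gene was called where its adjusted p was under 0.05 and its absolute log2 fold change at least 1, and 7 P450 genes were then higher in METTL16 KO and 0 lower. These were CYP2B6, CYP2C8, CYP2C18, CYP3A7, CYP11A1, CYP19A1 and CYP27B1. They are 35.0% of the 20 genes tested, where 7.7% of all genes tested were higher and 3.77% lower by the same rule. In 5 of the 7, namely CYP2B6, CYP2C8, CYP3A7, CYP11A1 and CYP19A1, both sgNS libraries were under 1 TPM. These 5 reached the minimum only through METTL16 KO and had to be higher there. Among genes at 1 TPM or more in at least 1 sgNS library, 2 of 15 P450 genes were higher by this rule (13.3%), against 6.3% of all such genes. The count of 0 lower genes is from limma, and at an unadjusted p under 0.05 without the fold threshold 4 were lower.

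Without the fold threshold, 12 of the 20 genes rose (60.0%, against 50.1% of all genes tested) and 4 fell (20.0%, against 25.6%). The 4 that fell were CYP1A1, CYP4F3, CYP4F12 and CYP26B1. On the scale as deposited both shares lay near those of all genes. After median-ratio scaling 11 of the 20 rose and 5 fell, where 36.4% of all genes were higher and 36.5% lower. On either scale the genes that rose include the 5 that reached the minimum only through METTL16 KO. The median log2 fold change of the 20 genes was 0.53, to be read beside the 0.16 of all genes and with the same limit on the genes that passed through METTL16 KO alone.

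**Figure D2:**
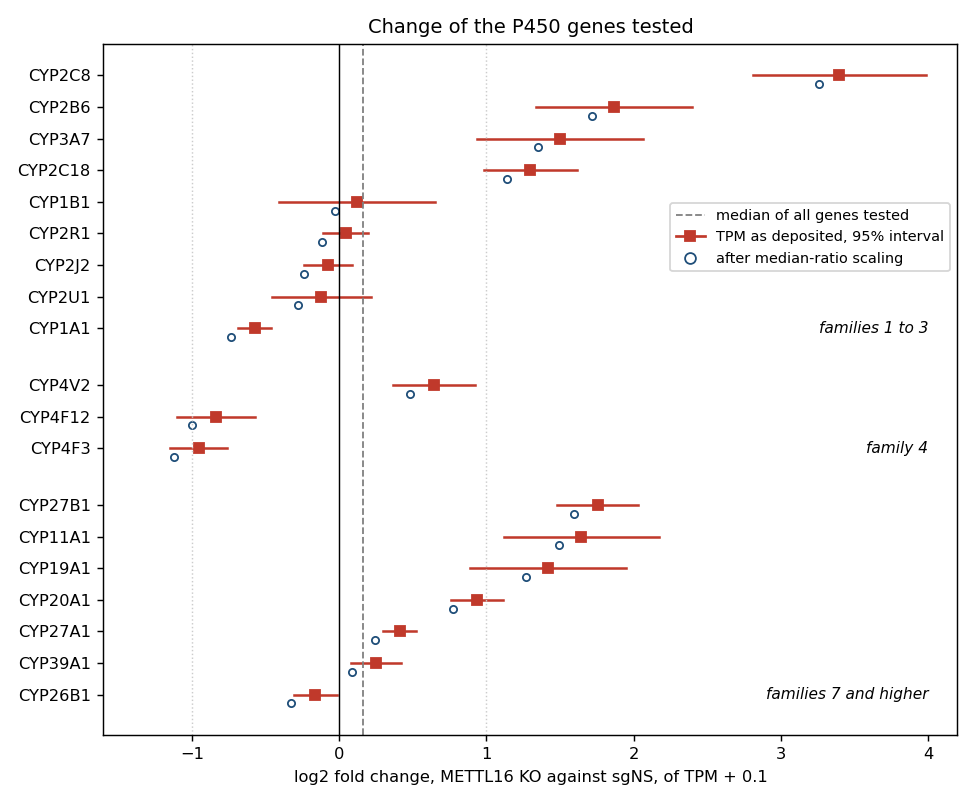
Log2 fold change of METTL16 KO against sgNS for 19 of the 20 P450 genes tested, on the log2(TPM + 0.1) scale, with 95% intervals from limma (red) and the value after median-ratio scaling (open circles). Dotted lines mark a log2 fold change of 1 in either direction and the dashed line the median of all genes, 0.16. CYP2C8 lies farthest to the right at 3.40 and CYP4F3 farthest to the left at -0.95.

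CYP1A1, which oxidizes polycyclic aromatic hydrocarbons, was the most abundant drug-metabolizing P450 gene and it fell. Its level was 41.5 and 42.9 TPM in sgNS against 28.2 and 28.6 TPM in METTL16 KO. Its groups did not overlap, and the log2 fold change was -0.57 (SE 0.051, adjusted p = 1.7e-06, limma). CYP1A1 is the classical target of AHR, and AHR moved the other way, from 63.5 and 68.8 TPM to 127.7 and 123.2 TPM (log2 fold change 0.92). TIPARP, another AHR target, which feeds back on the receptor, had a log2 fold change of 0.83. CYP1B1, a related enzyme, was at 1.38 and 0.97 TPM in sgNS and 1.39 and 1.16 TPM in METTL16 KO, and its 95% interval ran from -0.41 to 0.65. CYP1A2 was at 0.15 TPM or less.

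The 250 bases before the RefSeq start site of CYP1A1 (GRCh38) are shown because they hold the letters GCGTG, the core of the element that AHR and its partner ARNT bind. The match is in capitals, 57 to 53 bases before the start, and either strand was searched.
CYP1A1, chr15:74725529-74725778, minus strand: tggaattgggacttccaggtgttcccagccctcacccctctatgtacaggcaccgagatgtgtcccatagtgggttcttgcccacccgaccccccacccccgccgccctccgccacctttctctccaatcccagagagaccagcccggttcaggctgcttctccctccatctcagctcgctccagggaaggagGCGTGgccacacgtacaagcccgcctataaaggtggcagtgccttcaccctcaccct
Of 35116 promoters of this length, 32.2% hold GCGTG on one strand or the other, and so do 10 of the 37 P450 genes with an entry. The match is a description of the letters and not a site shown to be bound.

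CYP2C18, CYP2C19 and CYP2C8 lie near each other on chromosome 10 and encode enzymes that oxidize many drugs and arachidonic acid. CYP2C8 was listed at 0.2 TPM in each sgNS library against 3.54 and 2.65 TPM in METTL16 KO. Every METTL16 KO value lay far above both controls, and the log2 fold change was 3.40 (SE 0.26, adjusted p = 6.4e-07), the largest of the 20 genes tested. CYP2C18, at 1.56 and 1.75 TPM against 4.22 and 4.21 TPM, had a log2 fold change of 1.30 (SE 0.14, adjusted p = 1.0e-05). Its groups did not overlap, and the value was 1.14 after median-ratio scaling. CYP2C19 stood apart from these genes, at 1.03 and 1.13 TPM in sgNS and 0.88 and 0.71 TPM in METTL16 KO, and its mean was under the minimum for a test. These genes are similar in sequence, so that reads could be moved between them.

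CYP2B6, which oxidizes bupropion and efavirenz and is a classical target of the receptor CAR, was listed at 0.57 and 0.46 TPM in sgNS against 1.92 and 2.37 TPM in METTL16 KO. Its groups were far apart, with a log2 fold change of 1.87 (SE 0.24, adjusted p = 3.2e-05). The gene lies on chromosome 19 beside CYP2A6, CYP2A7, CYP2A13, CYP2F1 and CYP2S1, none of which exceeded 0.1 TPM in any library. Reads of CYP2B6 can be shared with a pseudogene copy.

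The promoters of CYP2C8 and CYP2B6 are shown because both genes rose and both hold CAAAGTCCA, letters that HNF4A prefers, on the plus or the minus strand of the gene (capitals). In CYP2C8 the match is 53 to 45 bases before the start, and in CYP2B6 it is 231 to 223 bases before the start and reads on the opposite strand.
CYP2C8, chr10:95069498-95069747, minus strand: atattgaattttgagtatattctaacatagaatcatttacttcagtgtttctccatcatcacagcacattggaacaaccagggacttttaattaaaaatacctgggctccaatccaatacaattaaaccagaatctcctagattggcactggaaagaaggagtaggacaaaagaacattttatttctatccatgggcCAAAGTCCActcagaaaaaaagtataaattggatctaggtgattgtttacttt
CYP2B6, chr19:40991032-40991281, plus strand: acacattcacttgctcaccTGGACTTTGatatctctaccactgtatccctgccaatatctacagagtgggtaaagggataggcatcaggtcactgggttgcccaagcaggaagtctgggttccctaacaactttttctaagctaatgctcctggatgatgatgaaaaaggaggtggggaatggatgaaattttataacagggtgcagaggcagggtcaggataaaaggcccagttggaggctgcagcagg
The match is in 0.325% of all promoters of this length and in 6 of the 37 P450 genes with an entry. Of the other 4, CYP2R1 had a log2 fold change of 0.046 (adjusted p = 0.56). CYP2A6, CYP2A7 and CYP2A13, neighbours of CYP2B6, did not exceed 0.1 TPM and were not tested. CYP3A7, CYP11A1 and CYP19A1, also called higher, have an entry without the match. Both CYP2C8 and CYP2B6 reached the minimum only through METTL16 KO. HNF4A itself was at 172 and 160.0 TPM in sgNS against 266 and 273 TPM in METTL16 KO, giving a log2 fold change of 0.70 (adjusted p = 6.8e-08). The matches are a description of the letters and not sites shown to be bound, and a part of HNF4A in these changes was not tested.

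CYP2R1, CYP2J2 and CYP2U1 did not pass the test, and the intervals give the changes that these libraries leave possible. CYP2R1, which starts the activation of vitamin D, was at 19.1 and 19.2 TPM in sgNS and 21.0 and 18.7 TPM in METTL16 KO, with a 95% interval of the log2 fold change from -0.11 to 0.20. CYP2J2, which makes epoxides of arachidonic acid, was at 15.7 and 16.9 TPM and at 14.7 and 16.3 TPM, with an interval from -0.24 to 0.088. CYP2U1, which hydroxylates long-chain fatty acids, was at 2.41 and 2.39 TPM and at 2.26 and 2.14 TPM, with an interval from -0.46 to 0.21. The groups overlapped for CYP2R1 and CYP2J2, and after median-ratio scaling CYP2J2 was lower, at -0.24 (adjusted p = 0.015). The groups of CYP2U1 did not overlap, and with quantile normalization it was lower, at -0.38 (adjusted p = 0.040). CYP2W1, a P450 known from colon tumours, was at 0.43 and 0.26 TPM in sgNS and 0.17 and 0.08 TPM in METTL16 KO and was not tested.

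The CYP3A genes lie together on chromosome 7, and their enzymes oxidize a large share of all drugs, with CYP3A7 as the form of the fetal liver. CYP3A7 was listed at 0.44 and 0.62 TPM in sgNS against 1.62 and 1.71 TPM in METTL16 KO, giving a log2 fold change of 1.50 (SE 0.26, adjusted p = 2.8e-04). It reached the minimum only through METTL16 KO and had to be higher there. CYP3A5, which was under the minimum mean and not tested, was at 0.4 and 0.35 TPM against 1.26 and 1.18 TPM. The groups of both genes were separate, with METTL16 KO higher. CYP3A4, the main adult form, was at 0.13 and 0.05 TPM in sgNS and 0.11 and 0.09 TPM in METTL16 KO, and CYP3A43 did not exceed 0.27 TPM. A transcript that reads from CYP3A7 into a pseudogene, CYP3A7-CYP3A51P, is listed apart at 0.12 and 0.16 TPM against 0.36 and 0.58 TPM and shares sequence with CYP3A7.

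The promoters of these neighbours are shown because the genes differ in level, and because the windows of CYP3A4 and CYP3A7 are nearly alike in letters from end to end. In CYP3A4 and CYP3A5 the capitals mark TGAACT and AGGTCA set 6 bases apart, the everted repeat that the drug receptor PXR binds in CYP3A genes.
CYP3A4, chr7:99784185-99784434, minus strand: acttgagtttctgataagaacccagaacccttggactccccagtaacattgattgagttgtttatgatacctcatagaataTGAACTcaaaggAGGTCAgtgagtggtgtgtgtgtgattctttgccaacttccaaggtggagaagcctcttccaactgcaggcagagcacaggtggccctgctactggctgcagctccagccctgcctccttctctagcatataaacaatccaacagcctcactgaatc
CYP3A5, chr7:99679997-99680246, minus strand: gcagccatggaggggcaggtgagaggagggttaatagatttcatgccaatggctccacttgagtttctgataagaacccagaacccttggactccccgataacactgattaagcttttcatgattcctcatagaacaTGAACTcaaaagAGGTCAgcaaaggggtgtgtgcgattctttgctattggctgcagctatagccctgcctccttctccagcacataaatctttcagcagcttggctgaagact
CYP3A7, chr7:99735197-99735446, minus strand: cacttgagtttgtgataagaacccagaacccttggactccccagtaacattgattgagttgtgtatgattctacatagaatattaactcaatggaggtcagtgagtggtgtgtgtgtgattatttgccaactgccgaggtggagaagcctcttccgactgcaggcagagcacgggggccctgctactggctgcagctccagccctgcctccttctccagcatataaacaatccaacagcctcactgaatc
The repeat with exactly these letters is in 3 of 35116 promoters, or 0.00854%, on either strand, and 2 of these 3 are CYP3A4 and CYP3A5. The CYP3A7 window has no exact match, which says only that these letters are not in it. In a global alignment the CYP3A4 and CYP3A7 windows were 94.0% identical. CYP3A4 was at 0.13 TPM or less in every library and was not tested, and CYP3A7 reached the minimum only through METTL16 KO. CYP3A5 matched CYP3A4 in 163 of 308 aligned columns (52.9%) and CYP3A7 in 160 of 307 (52.1%), where columns with a gap count as different. The CYP3A5 window holds long stretches of the same letters at other distances from the start. These 2 percentages therefore reflect gaps as well as unlike letters. NR1I2, which encodes PXR, was at 0.2 and 0.19 TPM in sgNS and 0.45 and 0.59 TPM in METTL16 KO, and NR1I3, which encodes CAR, was at 0.22 and 0.33 TPM and 0.42 and 0.69 TPM. Both receptors were too low to be tested.

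In family 4 the genes at work in these cells were CYP4F3, CYP4F12 and CYP4V2. CYP4F3 and CYP4F12 are neighbours on chromosome 19 (chr19:15640897-15697174, GRCh38) whose enzymes hydroxylate long-chain fatty acids and leukotrienes at the end of the chain, and both fell. CYP4F3 was listed at 14.8 and 13.0 TPM in sgNS against 6.87 and 7.33 TPM in METTL16 KO, with a log2 fold change of -0.95 (SE 0.088, adjusted p = 2.4e-06). CYP4F12 was at 15.3 and 15.0 TPM against 9.82 and 7.24 TPM, with a log2 fold change of -0.84 (SE 0.12, adjusted p = 7.0e-05). Neither gene's groups overlapped, and after median-ratio scaling the values were -1.12 and -1.0. The similar neighbours CYP4F2, CYP4F8, CYP4F11 and CYP4F22 were at 0.03 TPM or less in every library, and reads shared between such copies could be assigned to 1 of them.

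CYP4V2, which acts on fatty acids in the retina and lies on chromosome 4, went the other way. It was at 3.14 and 2.73 TPM in sgNS against 4.75 and 4.53 TPM in METTL16 KO, with a log2 fold change of 0.65 (SE 0.13, adjusted p = 7.5e-04). The remaining members of family 4, CYP4A11, CYP4A22, CYP4B1, CYP4X1 and CYP4Z1, lie in a cluster on chromosome 1, and none of them exceeded 0.03 TPM.

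Among the bile acid genes, CYP27A1 was abundant. It encodes the mitochondrial enzyme that starts the alternative pathway of bile acid synthesis, and it was at 32.1 and 30.6 TPM in sgNS against 42.4 and 41.0 TPM in METTL16 KO. This gave a log2 fold change of 0.41 (SE 0.052, adjusted p = 2.9e-05), and 0.25 after median-ratio scaling. CYP39A1, an oxysterol hydroxylase, was at 10.8 and 11.9 TPM against 13.7 and 13.4 TPM (log2 fold change 0.25, SE 0.076, adjusted p = 0.011), and after median-ratio scaling it was at 0.086 with an adjusted p of 0.33. CYP39A1 also lost its call without sgNS replicate 1, without METTL16 KO replicate 1 or without METTL16 KO replicate 2, with adjusted p-values from 0.061 to 0.082.

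CYP7A1, the rate-limiting enzyme of the classical pathway of bile acid synthesis, was all but silent in sgNS, at 0.02 and 0.03 TPM, and was at 1.23 and 1.35 TPM in METTL16 KO. CYP7B1, which acts after CYP27A1, was at 0.21 and 0.25 TPM against 0.56 and 0.7 TPM. Both had separate groups with METTL16 KO higher, and both missed the minimum mean and were not tested. CYP8B1, which sets the share of cholic acid, was between 0.13 and 0.24 TPM in all libraries, with overlapping groups, and CYP46A1, the cholesterol hydroxylase of neurons, did not exceed 0.07 TPM.

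CYP27B1, the mitochondrial enzyme that makes the active form of vitamin D, had the largest log2 fold change of the P450 genes above 1 TPM in all 4 libraries. Its level was 2.57 and 2.12 TPM in sgNS against 7.99 and 8.26 TPM in METTL16 KO. The METTL16 KO libraries were both more than 3-fold above either control, with a log2 fold change of 1.76 (SE 0.12, adjusted p = 2.9e-07) and of 1.59 after median-ratio scaling. CYP24A1, which breaks the active form down and is its classical target gene, was at 0 in each sgNS library against 0 and 0.08 TPM in METTL16 KO.

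CYP26B1, which breaks down retinoic acid, was the most abundant P450 gene, at 51.6 and 44.3 TPM in sgNS and 43.2 and 42.3 TPM in METTL16 KO. It passed the test narrowly with a log2 fold change of -0.16 (SE 0.067, adjusted p = 0.047), and the 44.3 TPM of sgNS replicate 2 lay next to the METTL16 KO values. Without sgNS replicate 1 its log2 fold change was -0.051 and the adjusted p was 0.38, and without sgNS replicate 2 it was -0.27 with an adjusted p of 0.0011. After median-ratio scaling the gene was lower by a larger margin, at -0.33 (adjusted p = 0.0011), and with quantile normalization it was at -0.30 (adjusted p = 0.0031). The call was also lost without METTL16 KO replicate 1 (adjusted p = 0.16) and without METTL16 KO replicate 2 (adjusted p = 0.23). CYP26A1, the form that retinoic acid induces, was at 0.08 and 0.5 TPM in sgNS and 1.07 and 0.98 TPM in METTL16 KO, and its neighbour CYP26C1 at 0 and 0.05 TPM against 0.37 and 0.23 TPM. Neither was tested.

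Of the genes of steroid hormone synthesis, CYP11A1, which cuts the side chain of cholesterol, and CYP19A1, the aromatase that makes estrogens, rose at low levels. CYP11A1 was at 0.52 and 0.79 TPM in sgNS against 2.18 and 2.27 TPM in METTL16 KO (log2 fold change 1.65, SE 0.24, adjusted p = 8.3e-05). CYP19A1 was at 0.51 and 0.63 TPM against 1.68 and 1.69 TPM (log2 fold change 1.42, SE 0.24, adjusted p = 2.6e-04). CYP11A1 and CYP19A1 reached the minimum only through METTL16 KO and had to be higher there. CYP17A1 was listed at 0 in each sgNS library against 0.22 and 0.24 TPM in METTL16 KO, and CYP11B1 and CYP11B2 at 0 in all 4. CYP20A1, an enzyme without an agreed substrate, was at 7.47 and 6.98 TPM in sgNS against 13.6 and 14.2 TPM in METTL16 KO, with a log2 fold change of 0.94 (SE 0.079, adjusted p = 1.2e-06) and of 0.77 after scaling. CYP27C1, an enzyme of vitamin A, did not exceed 0.05 TPM.

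The total P450 transcript level differed little between the groups, while the class sums went in different directions. Summed over all 53 genes it was 226.2 and 218.7 TPM in sgNS and 235.0 and 229.8 TPM in METTL16 KO, or 222 ± 5.3 and 232 ± 3.7 TPM (SD, n = 2 per group). Families 1 to 3 summed to 86.9 and 89.5 TPM against 85.1 and 83.8 TPM. Family 4 summed to 33.3 and 30.7 TPM against 21.5 and 19.1 TPM, a percent change of -36.6 with no overlap. Families 7 and higher summed to 106.1 and 98.5 TPM against 128.4 and 126.9 TPM, higher by 24.7%. After median-ratio scaling the log2 ratio of families 7 and higher went from 0.32 to 0.15, and that of all P450 genes turned from 0.063 to -0.10. An exact two-sided permutation test with 2 libraries per group cannot give a p under 0.33, which is the value each of these sums gave. As a share of all P450 transcripts, CYP1A1 went from 18.3% and 19.6% to 12.0% and 12.4%, and CYP27A1 from 14.2% and 14.0% to 18.0% and 17.8%. In bulk RNA, fewer cells with a transcript and less of it per cell cannot be told apart.

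**Figure D3:**
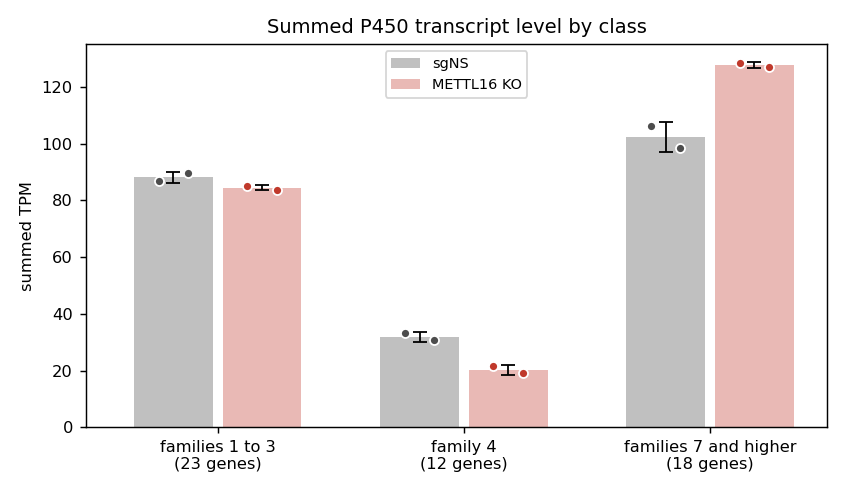
Summed TPM of the P450 genes of each class, with bars for the group mean, error bars for the SD (n = 2 libraries) and 1 point per library. The family 4 sum is 32.0 TPM in sgNS and 20.3 TPM in METTL16 KO, and the sum of families 7 and higher is 102.3 and 127.6 TPM.

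Genes related to the P450 enzymes were taken from lists of 81 symbols in all, of which 65 were tested. The lists also hold epoxide hydrolases and the P450 genes CYP51A1, PTGIS and TBXAS1, which are given apart. With the fold threshold 12 of the 65 were higher (18.5%, beside 7.7% of all genes tested) and 1 was lower (1.54%, beside 3.77%). Of the 12, VDR, BAAT and LRP2 reached the minimum only through METTL16 KO and had to be higher there, so that the 18.5% rests in part on the filter. Without the threshold 32 rose (49.2%, beside 50.1%) and 19 fell (29.2%, beside 25.6%). After median-ratio scaling 24 of the 65 were higher and 29 lower, where 36.4% of all genes tested were higher and 36.5% lower. Counts of each list below are given on both scales and are to be read against these shares of all genes. Of the electron donors and membrane partners, 3 of 9 rose and 3 fell, none past the fold threshold, and the median log2 fold change was -0.039. After median-ratio scaling 2 were higher and 5 lower. POR, the electron donor of the endoplasmic reticulum, went from 133.6 and 124.3 TPM to 185.9 and 191.3 TPM (log2 fold change 0.55, adjusted p = 5.9e-07). FDX1, the mitochondrial ferredoxin that serves CYP27A1, CYP27B1 and CYP11A1, went from 10.6 and 10.8 TPM to 18.9 TPM in both METTL16 KO libraries (log2 fold change 0.82, adjusted p = 8.0e-07). FDXR, which reduces ferredoxin, was at 3.08 and 3.16 TPM against 2.85 and 3.1 TPM with an adjusted p of 0.66. CYB5A, cytochrome b5, had a log2 fold change of 0.28 (adjusted p = 0.0035), and of 0.11 with an adjusted p of 0.16 after median-ratio scaling, while CYB5B fell by 0.33 and PGRMC2, a heme-binding partner, fell by 0.50 on the log2 scale.

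In heme synthesis and breakdown 6 of 11 genes rose and 4 fell (median log2 fold change 0.16, the same as that of all genes), and after median-ratio scaling 1 was higher and 5 lower. ALAS1, the rate-limiting enzyme of heme synthesis in the liver, was at 67.3 and 62.1 TPM in sgNS and 71.4 and 76.4 TPM in METTL16 KO (log2 fold change 0.19, adjusted p = 0.0068, and 0.027 after median-ratio scaling). PPOX, which oxidizes protoporphyrinogen near the end of the pathway, fell from 16.21 and 17.5 TPM to 4.14 and 4.41 TPM (log2 fold change -1.95, adjusted p = 7.8e-09). HMOX1, the inducible heme oxygenase, rose from 21.4 and 18.5 TPM to 55.3 and 51.5 TPM (log2 fold change 1.42, adjusted p = 2.2e-08). BLVRA and BLVRB, the biliverdin reductases that act after it, fell by 0.84 and by 0.58 on the log2 scale.

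Of the transcription regulators of P450 genes, 11 of 19 rose and 3 fell (median log2 fold change 0.20), and after median-ratio scaling 9 were higher and 6 lower. The 4 past the fold threshold (21.1%, beside 7.7% of all genes tested) were VDR, RARB, NR5A2 and RARA. VDR, the vitamin D receptor, was listed at 0.06 TPM in each sgNS library against 2.61 and 2.66 TPM in METTL16 KO (log2 fold change 4.10, adjusted p = 5.4e-07), and like CYP2C8 it reached the minimum only through METTL16 KO. RARB, a retinoic acid receptor, went from 1.56 and 1.61 TPM to 8.63 and 8.74 TPM (log2 fold change 2.38), and RARA from 9.46 and 8.22 TPM to 18.3 and 17.3 TPM (log2 fold change 1.00, and 0.84 after median-ratio scaling). NR5A2, which drives CYP7A1, went from 38.3 and 40.3 TPM to 82.2 and 81.7 TPM (log2 fold change 1.06, and 0.89 after median-ratio scaling). NR0B2, the bile acid induced repressor SHP that acts on the same promoter, went from 36.0 and 39.9 TPM to 24.0 and 24.9 TPM (log2 fold change -0.63, adjusted p = 3.7e-06). NR1H4, the bile acid receptor FXR, had a log2 fold change of -0.11 (adjusted p = 0.011). CYP7A1 was under the minimum for a test, and a part of these regulators in its values was not tested.

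**Figure D4:**
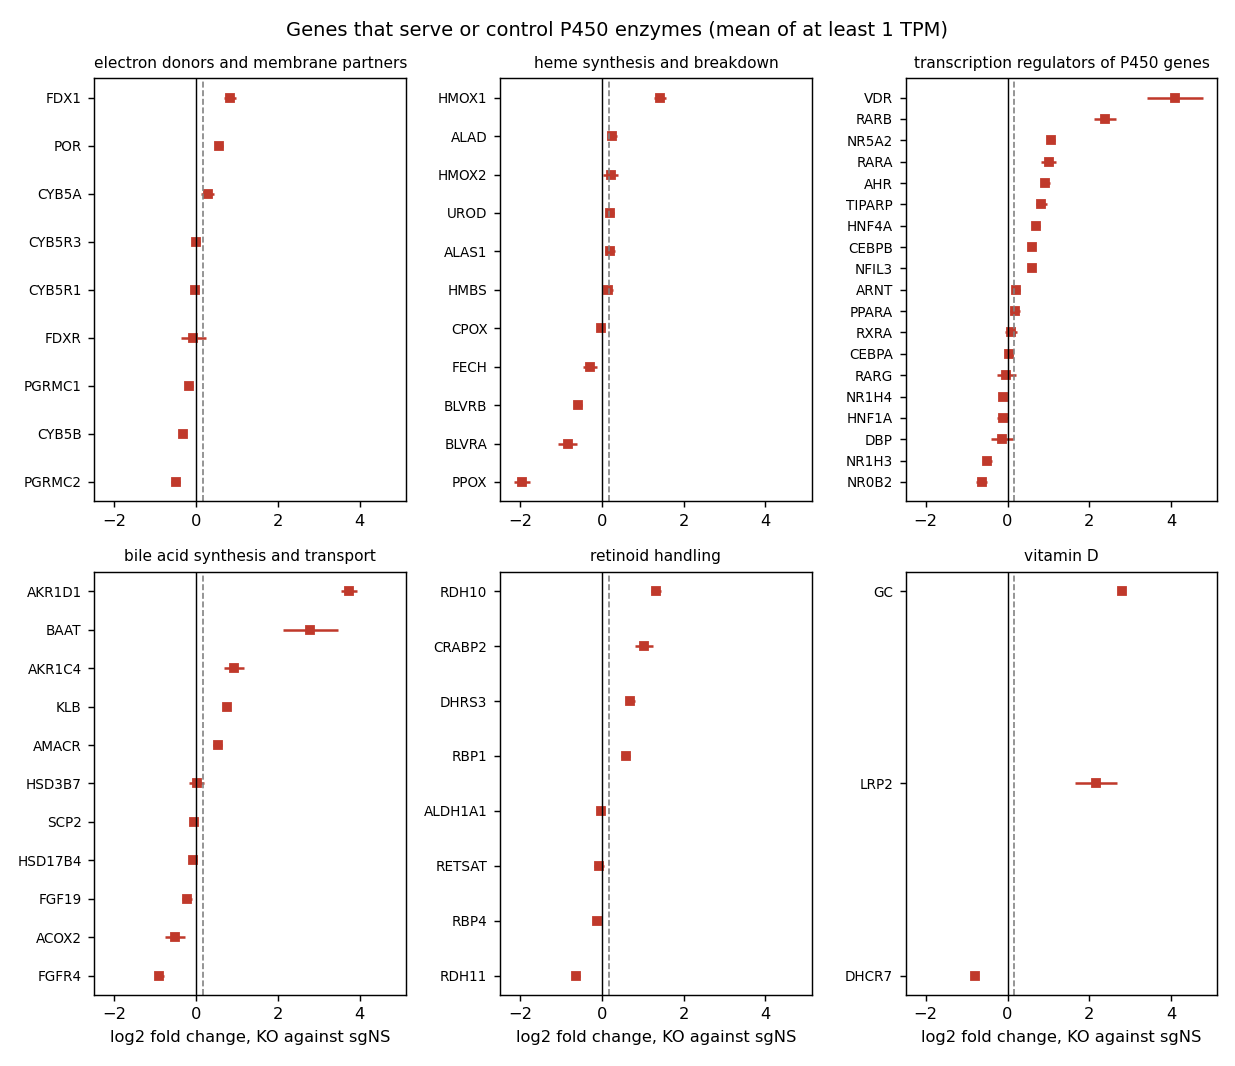
Log2 fold change of METTL16 KO against sgNS, with 95% intervals from limma, for the tested genes of the 6 larger partner lists. The solid line is 0 and the dashed line the median of all genes, 0.16. VDR (4.10), AKR1D1 (3.74), GC (2.80) and BAAT (2.79) lie farthest to the right and PPOX (-1.95) farthest to the left.

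The other genes of bile acid synthesis and transport moved both ways, with 5 of 11 higher, 3 lower and a median log2 fold change of 0.0067, and after median-ratio scaling 5 were higher and 5 lower. AKR1D1, the reductase that acts on the sterol ring after CYP7A1, rose from 4.9 and 3.98 TPM to 59.8 and 60.9 TPM, a log2 fold change of 3.74 (adjusted p = 8.7e-11). BAAT, which joins bile acids to glycine or taurine, was at 0.19 and 0.4 TPM in sgNS and 2.34 and 2.73 TPM in METTL16 KO (log2 fold change 2.79, adjusted p = 8.7e-06), and it too reached the minimum only through METTL16 KO. SLC27A5, of the same list, went the other way, at 1.41 and 1.53 TPM in sgNS against 0.23 and 0.34 TPM in METTL16 KO. Its mean was under the minimum, so that it was not tested. FGFR4, the receptor through which FGF19 represses CYP7A1, went from 305 and 270 TPM to 152.6 and 154.4 TPM (log2 fold change -0.90), while its partner KLB went from 83.1 and 83.0 TPM to 140.4 and 139.3 TPM (log2 fold change 0.75). FGF19 itself fell by 0.22 on the log2 scale. A part of FGFR4, KLB or FGF19 in the CYP7A1 values was not tested.

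Of the retinoid genes 4 of 8 rose and 2 fell (median log2 fold change 0.27), and after median-ratio scaling 4 were higher and 4 lower. RDH10, which makes retinaldehyde, rose from 17.8 and 18.6 TPM to 45.7 and 45.5 TPM (log2 fold change 1.32), and CRABP2, which carries retinoic acid to its receptors, from 4.44 and 4.83 TPM to 8.97 and 10.1 TPM (log2 fold change 1.02, and 0.86 after median-ratio scaling). Of the vitamin D genes, GC, the vitamin D binding protein of plasma, rose from 278.7 and 281.3 TPM to 1976 and 1921 TPM (log2 fold change 2.80, adjusted p = 3.1e-13). LRP2, which takes that protein up, went from 0.42 and 0.43 TPM to 2.29 and 2.19 TPM (log2 fold change 2.16), and DHCR7, which diverts the vitamin D precursor to cholesterol, fell by 0.80. Of the 3 vitamin D genes tested, 2 rose and 1 fell, and the counts were the same after median-ratio scaling. CYP27B1 and VDR were higher too, whereas CYP2R1 did not pass the test and CYP24A1 did not exceed 0.08 TPM. VDR and LRP2 reached the minimum only through METTL16 KO.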

How the data were processed

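RNA-seq values of 2 sgNS and 2 METTL16 KO libraries of Huh7 cells were analysed. The authors trimmed reads with Cutadapt, used STAR to align them to GRCh38 and RSEM to quantify each gene, and the table they deposited gives TPM per gene symbol and library. Their methods name the unit RPKM, but every column sums to 1000000. Tool versions and annotation are not given in the sources used here.

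Values were transformed to log2(TPM + 0.1) for genes with a mean of at least 1 TPM, and limma 3.58.1 in R 4.3.3 compared the 2 groups (eBayes with a mean-variance trend, no block, two-sided, Benjamini-Hochberg over 11971 genes). "Rose" and "fell" denote an adjusted p under 0.05. Fold changes on this scale understate those of low genes. The fit was tested on simulated data. The P450 genes, partner lists, motifs and call rules were chosen with earlier results of these data known. Every P450 gene tested, or listed at 0.5 TPM or more in a library, was named with its values, except 1 that is counted but not reported here, with partner genes past the fold threshold and a fixed few. Others were named after their values were seen. UROS, RXRB and CYP21A2 are not analysed here.

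Positions are from GENCODE release 44 (all 53 genes matched) and upstream sequences from RefSeq on GRCh38.p14 (37 matched, with P450 genes on chromosome 8 left out). The share over all promoters kept that chromosome and counted each entry, whereas P450 genes were counted once each. Alternatives were other pseudocounts, filters, scalings, models and a fold of 1.5, the replicate block and each library left out.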

Additional observations from a re-analysis of the deposited data

How the results depend on the processing

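METTL16 was lower with an adjusted p under 0.05 in every alternative run, and 13 of the 20 P450 genes tested kept their direction and call in all of theirs. The count of 7 higher and 0 lower genes past the fold threshold was 3 higher with a pseudocount of 1, 12 with all genes above 0 in at least 1 library (CYP3A5, CYP7A1, CYP7B1, CYP17A1 and CYP26C1 added), 1 with a minimum mean of 5 TPM, where fewer genes are tested, and 2 among genes at 1 TPM or more in a sgNS library, an alternative chosen after seeing the data. Lower genes numbered 2 (CYP4F3 and CYP4F12) with median-ratio scaling, with quantile normalization and with a fold threshold of 1.5, and from 0 to 1 with a library left out, which was CYP4F3 without sgNS replicate 2 or METTL16 KO replicate 2 and CYP4F12 without METTL16 KO replicate 1. Without the fold threshold, a minimum mean of 5 TPM gave 4 higher genes against 12, and the unmoderated model 2 lower genes against 4. The log2 ratios of summed TPM went with median-ratio scaling from 0.063 to -0.10 for all P450 genes, from -0.062 to -0.23 for families 1 to 3, from -0.66 to -0.82 for family 4 and from 0.32 to 0.15 for families 7 and higher. CYP1B1 turned to -0.030 with median-ratio scaling, -0.35 with quantile normalization and -0.11 without sgNS replicate 2 (from -0.11 to 0.36 with a library left out), and CYP2R1 to -0.12, -0.14 and, without METTL16 KO replicate 1, -0.038 (from -0.038 to 0.13), none past the test. CYP19A1 and CYP3A7 were under the fold threshold with quantile normalization, at 0.88 and 0.94. CYP4F12 had an adjusted p of 0.093 in the unmoderated model. The cause of these shifts was not tested, apart from the filters, which change the genes tested. With the replicate block the fold-threshold counts were 7 higher and 0 lower and no call changed. The numbers were not taken as pairs, since libraries with the same number deviated from their groups with a correlation of -0.044 (11971 genes).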

Other observations

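P450 enzymes outside the naming pattern also moved. CYP51A1, the sterol demethylase of cholesterol synthesis, was above every one of the 53 genes in level, at 436 and 448 TPM in sgNS, and fell to 262 and 258 TPM in METTL16 KO (log2 fold change -0.77, adjusted p = 4.7e-09, limma). PTGIS, the prostacyclin synthase, fell from 5.75 and 5.15 TPM to 4.02 and 3.82 TPM (log2 fold change -0.46, adjusted p = 0.0031). TBXAS1, the thromboxane synthase, was between 0.47 and 0.87 TPM in all libraries and was not tested. Of the epoxide hydrolases, which act on products of P450 enzymes, EPHX1 rose from 51.9 and 43.96 TPM to 151.8 and 154.4 TPM (log2 fold change 1.68, adjusted p = 3.2e-09) and EPHX2 fell from 24.8 and 27.0 TPM to 20.5 and 19.1 TPM (log2 fold change -0.39, adjusted p = 2.8e-04).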
